A study of Mus musculus with 7 samples.

Results

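Angptl4 and 8 other genes of the PPAR pathway were followed at the end of the small intestine, the terminal ileum, in mice that received a low dose of penicillin from birth and in untreated mice. The 9 listed genes are Angptl4, Pdk4, Cpt1a, Plin2, Acot1, Cyp4a10, Cyp4a14, Creb3l3 and Ppara. Probe sets were taken where the platform annotation names only that gene, which gave 13 probe sets of 8 genes out of 34945 probe sets of 18193 genes. Cyp4a10 has only a probe set shared with a related gene and is not analysed here. The penicillin group held 4 mice dosed from birth with penicillin at 6.7 mg/L, and the control group held 3 mice without antibiotics. All 7 were male C57BL6J mice aged 8 weeks, weaned onto chow at 4 weeks and moved at 6 weeks to a high-fat diet (45% of calories), so both groups shared that diet. The labels call the samples biological replicates. Litter, cage and feeding state at collection were not among the details used here, and a litter or cage difference cannot be told apart from penicillin.

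PPARs are nuclear receptors activated by fatty acids. They pair with the retinoid X receptor (RXR) on DNA repeats of the hexamer AGGTCA and switch on genes for the uptake, storage and burning of fat. Angptl4, also known as fasting-induced adipose factor, is a secreted inhibitor of lipoprotein lipase and a classical PPAR target. In the intestine it is known to be lowered by colonisation with microbes, so the comparison asks whether an antibiotic given from birth moves it, and whether the other PPAR targets move with it or apart from it.

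Angptl4 was higher in penicillin mice by 0.54 ± 0.15 on the log2 scale (SE, 1.45-fold), and the 4 penicillin mice all lay above the 3 control mice. Ppara, which encodes PPAR alpha, was higher by a smaller 0.20 ± 0.069 (SE), again without overlap. The other targets did not share a direction. Pdk4, Cpt1a and Plin2 differed by -0.36, -0.16 and -0.0064, while Creb3l3 and Acot1 differed by 0.50 and 0.14, and in all 5 the groups overlapped. In limma, a linear model fitted over all 13644 genes, none of the 7 members tested had an adjusted p (Benjamini-Hochberg) under 0.05. In that fit 13 genes, 0.0953% of those tested, passed, and 0.00733% passed with penicillin higher. At an unadjusted p under 0.05, Angptl4 and Ppara were higher and no member was lower. Over all genes 4.37% were higher at that level, or 596 genes, against 707 after renewed quantile normalisation. Lower at that level were 867 of the 13644 genes, against 694 after that normalisation. The groups did not overlap, with penicillin higher, in 2 of the 7 members and in 4.29% of all genes tested.

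The AGGTCA hexamer was looked up in the RefSeq promoter windows (build GRCm38.p6), which held 7 windows of 6 of the members: Pdk4, Cpt1a, Plin2, Acot1, Creb3l3 and Ppara. The search covered the 250 bases before the start site on both strands. The 3 members with a match are shown with 12 bases on each side, to let their sites be set beside their values. Capitals mark the match, and TGACCT is the hexamer read from the opposite strand.
Plin2: tttcaggaccccTGACCTaagtcagacagc
Creb3l3: taagtaggggagAGGTCAcacagacccgac
Cpt1a: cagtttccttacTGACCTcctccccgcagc
The windows lie at chr4:86670260-86670289 (minus strand), chr10:81092776-81092805 (minus strand) and chr19:3323195-3323224 (plus strand). The match starts 218, 202 and 94 bases before the start site of Plin2, Creb3l3 and Cpt1a. The hexamer was in 14.0% of all 32851 promoter windows of the same length. The full element, which is the hexamer, any base, and the hexamer again, was in 0.0335% of them and in no member's window. An exact element that rare was unlikely in 7 windows of any genes, so its absence says nothing about the members. No window of Angptl4 was at hand. The 3 members with a match differed between the groups by -0.0064, 0.50 and -0.16 (Plin2, Creb3l3, Cpt1a). The groups overlapped in each of them, so these values cannot show whether a match goes with a direction.

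Values are log2 expression made by the authors with RMA, a method that removes background and brings all arrays to a like distribution, and 1 unit is a 2-fold difference. Array medians lay between 5.43 and 5.45, and each value rests on 1 array per mouse, so the number of arrays limits the precision. Control replicate 3 differed most from the rest, at -30.0 on the first principal component against -2.90 to 17.6. A growth note in the labels speaks of livers. Fabp6, which carries bile acids in ileal enterocytes, was at 14.3 to 14.6 in every mouse. That is close to the highest value in the data, 14.747, so Fabp6 could show little difference between mice. The mean of 8 ileal enterocyte genes was 11.047 in control replicate 3 against 11.669 to 11.983 in the other mice. The samples were therefore not alike in these genes, and the reason was not tested. Of 8 hepatocyte genes 7 were on the array, and the mean of the 5 tested ran from 7.61 to 8.08 in control mice and from 7.44 to 8.19 in penicillin mice. Within that list Alb, serum albumin, was at 5.15 to 7.95, while Fgb and Ahsg, at 3.76 to 4.54 and 4.18 to 4.63, lay under the filter on low genes.

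Angptl4 was read by its bright probe set at log2 10.06, 9.818 and 9.738 in control replicates 1 to 3, and at 10.29, 10.49, 10.74 and 10.13 in penicillin replicates 1 to 4. The lowest penicillin mouse, replicate 4, was just above the highest control mouse, replicate 1, and penicillin replicate 3 was the highest of all. The means were 9.87 ± 0.170 (SD, n = 3) and 10.4 ± 0.264 (SD, n = 4), and the 95% interval of the difference was 0.19 to 0.88 (limma, adjusted p = 0.308). By the size of its moderated t in the upward direction Angptl4 ranked 114 of 13644 genes. Its difference was 0.47 ± 0.17 without control replicate 3 and 0.43 ± 0.12 without penicillin replicate 3 (SE, limma adjusted p = 0.406 and 0.535). The other probe set of Angptl4 lay between 2.789 and 3.101 in all mice, with only 0.518% of probe sets lower, so it gave no usable level. Averaging both probe sets brought the difference to 0.31 ± 0.098 (SE, limma adjusted p = 0.365).

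**Figure D1:**
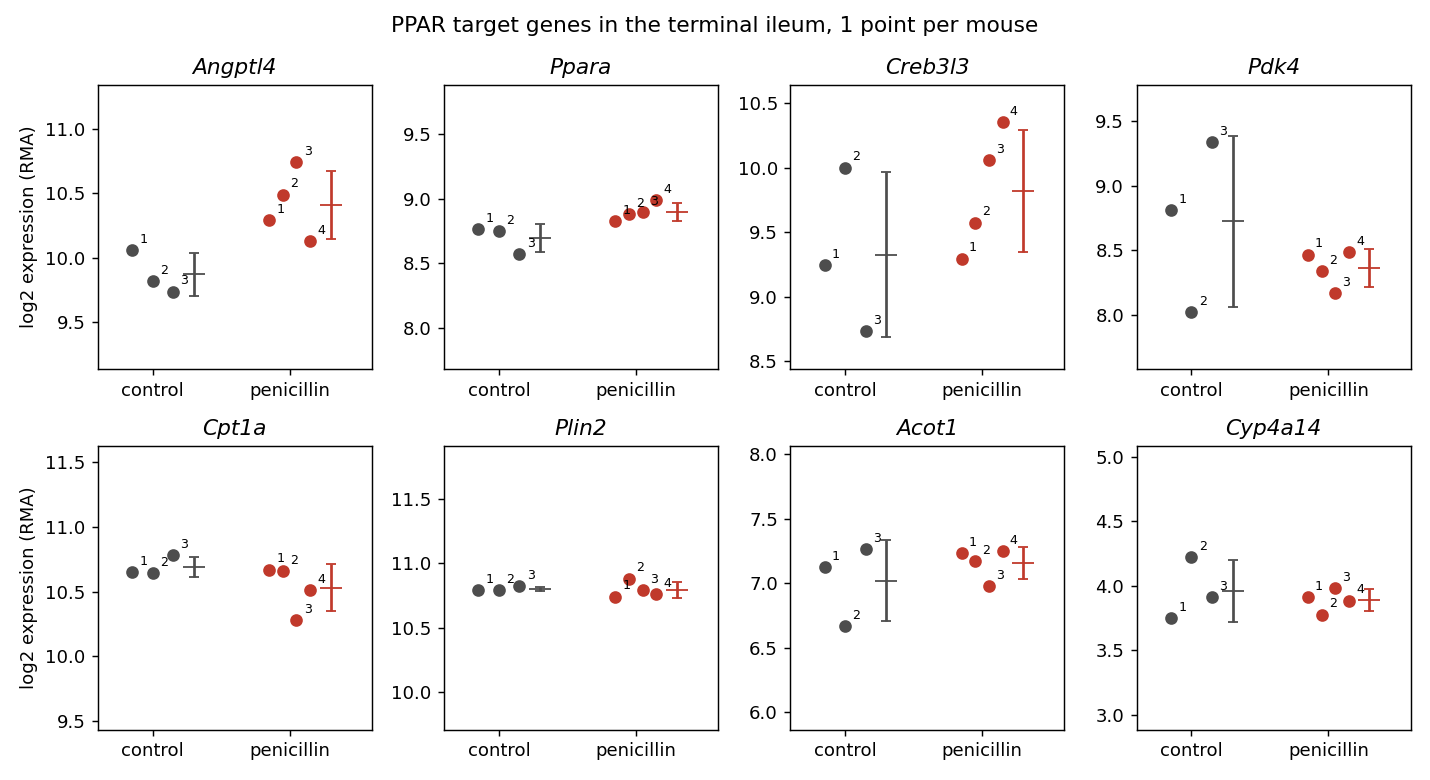
Log2 expression (RMA) of 8 members, at the brightest probe set of each, with 1 numbered point per mouse (the number is the replicate) and the group mean ± SD beside the points; every panel spans the same log2 range. Angptl4 and Ppara are the panels in which all penicillin mice (red) lie above all control mice (grey), while Creb3l3 and Pdk4 show the widest spread among control mice.

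Ppara, the receptor among the members, was at 8.762, 8.751 and 8.571 in control mice and at 8.825, 8.883, 8.896 and 8.992 in penicillin mice at its brightest probe set. Penicillin mice were all higher, by a narrow margin (limma, adjusted p = 0.398). The other 2 probe sets of Ppara differed by 0.13 ± 0.078 and 0.19 ± 0.055 (SE, adjusted p = 0.619 and 0.433 in limma over all probe sets). The groups did not overlap in the last of these and did overlap in the other. In all, 3 of the 13 member probe sets had groups that did not overlap, each with penicillin higher, against 3.77% of all probe sets. Without control replicate 3, the lowest mouse for Ppara, the difference was 0.14 ± 0.061 (SE, limma adjusted p = 0.476).

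Creb3l3 encodes a membrane-bound transcription factor of liver and gut that works with PPAR alpha on genes of lipid handling. It was at 9.244, 10.001 and 8.730 in control mice and at 9.295, 9.574, 10.06 and 10.35 in penicillin mice. The control mice thus spanned most of the range of the penicillin mice, with control replicate 3 the lowest. The difference of 0.50 ± 0.34 (SE, limma adjusted p = 0.586) was 0.20 ± 0.33 without that mouse and 0.83 without control replicate 2.

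Pdk4 encodes a kinase that shuts off pyruvate dehydrogenase and so spares glucose when fat is burned. It was at 8.811, 8.025 and 9.339 in control mice and at 8.467, 8.338, 8.167 and 8.485 in penicillin mice. The penicillin mice lay close together inside the wide span of the control mice. Its difference of -0.36 ± 0.27 (SE, limma adjusted p = 0.610) was -0.054 ± 0.21 without control replicate 3 and -0.71 without control replicate 2, so single control mice set its size.

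Cpt1a, carnitine palmitoyltransferase, admits long-chain fatty acids to mitochondria. At its brightest probe set it was at 10.65, 10.64 and 10.78 in control mice and at 10.67, 10.66, 10.28 and 10.51 in penicillin mice. Penicillin replicate 3 was the lowest and the groups overlapped (difference -0.16 ± 0.10, SE, limma adjusted p = 0.571), and without that mouse the difference was -0.075. The other 2 of its 3 probe sets differed by 0.057 and 0.015, so the sign depended on the probe set.

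Plin2, which coats lipid droplets, was at 10.79, 10.79 and 10.82 in control mice and at 10.74, 10.88, 10.79 and 10.76 in penicillin mice. This was the tightest of the members, with a 95% interval of the difference from -0.13 to 0.12 (limma adjusted p = 0.969), which leaves out a change as large as the estimate for Angptl4. Acot1, a cytosolic acyl-CoA thioesterase, was at 7.125, 6.666 and 7.263 in control mice and at 7.235, 7.170, 6.979 and 7.246 in penicillin mice. Apart from the low control replicate 2 the mice were alike, and without it the difference of 0.14 ± 0.14 (SE, limma adjusted p = 0.701) was -0.036. Cyp4a14, a fatty acid omega-hydroxylase that PPAR alpha induces strongly in liver, lay between 3.750 and 4.221 in every mouse. Only 18.8% of probe sets had a lower mean, and Cyp4a14 was under the filter on low genes and was not tested with the others. Acot1 has a near relative, Acot2, and array probes can take up RNA of near-identical genes.

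**Figure D2:**
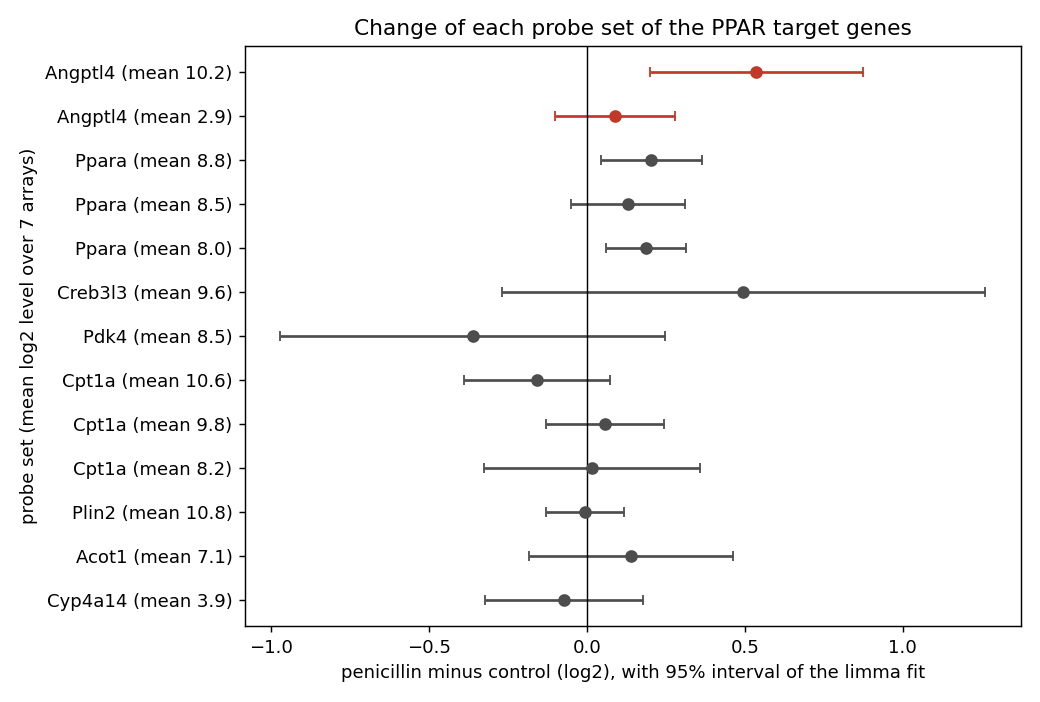
Penicillin minus control on the log2 scale for the 13 member probe sets, with the 95% interval of the limma fit over all probe sets; the mean log2 level is given beside each gene, and Angptl4 is in red. The intervals of the bright Angptl4 probe set and of 2 Ppara probe sets lie above 0, before adjustment for the number of probe sets tested.

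Whether Angptl4 moved apart from another member was tested on the difference between the 2 genes within each mouse, so that only how that difference changed between the groups was read. Cyp4a14 was left out, which gave 6 comparisons. A two-sided exact permutation test over the 35 ways to divide 7 mice into 3 and 4 cannot give a p below 0.0571, so none could pass 0.05. The interval given runs from the lowest to the highest of the 12 differences between a penicillin and a control mouse, which covers a shift between the groups with 94.3% confidence.

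Against Cpt1a the change of Angptl4 was greater by 0.69 ± 0.24 (SE, interval 0.20 to 1.498). Against Plin2 it was greater by 0.54 ± 0.16 (SE, interval 0.098 to 1.03). In both comparisons all penicillin mice lay above all control mice and the exact p was the smallest possible, 0.0571 (0.171 adjusted over the 6). Against Pdk4 the excess was 0.90 ± 0.45 (SE, interval -0.15 to 2.17, exact p = 0.114, adjusted 0.229), and 0.52 without control replicate 3. Set against Acot1 and Ppara, Angptl4 had an excess of 0.40 ± 0.28 and 0.33 ± 0.16 (SE), with intervals from -0.27 to 1.29 and from -0.17 to 0.78 (exact p = 0.286 and 0.171, adjusted 0.343 and 0.257). The excess over Acot1 was 0.21 without control replicate 3 and 0.23 without penicillin replicate 3, and that over Ppara was 0.22 without penicillin replicate 3. Against Creb3l3 the excess was 0.041 ± 0.46 (SE, exact p = 0.971), or 0.27 without control replicate 3, and its interval of -1.23 to 1.17 is too wide to show that both moved alike. With probe sets averaged the excess over Cpt1a was 0.34 and its groups overlapped (lowest difference between mice -0.032, exact permutation p = 0.114, adjusted 0.343). On the same averages the excess over Plin2 was 0.32, still without overlap, and that over Pdk4, Acot1 and Ppara 0.67, 0.17 and 0.14. These averages take in the Angptl4 probe set without a usable level, which by itself makes every excess smaller. The change of Angptl4 was 0.31 on them against 0.54 at its bright probe set, and that of Cpt1a -0.029 against -0.16.

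Across the 7 mice, Angptl4 went up with Ppara (Pearson r = 0.679, exact permutation p = 0.0897; Spearman rho = 0.786, p = 0.0480) and down with Cpt1a (r = -0.720, p = 0.0625; rho = -0.429, p = 0.354). Neither passed once adjusted over the 6 members, at 0.269 for both r and 0.288 and 0.530 for rho (exact permutation). The Pearson r with Pdk4, Plin2, Acot1 and Creb3l3 was -0.504, 0.148, 0.0935 and 0.382 (exact permutation p = 0.253, 0.763, 0.856 and 0.398, adjusted 0.506, 0.856, 0.856 and 0.598). Without control replicate 2 the r with Pdk4 was -0.934 and passed (exact permutation, adjusted p = 0.0333), while without control replicate 3 it was -0.113 (exact permutation, adjusted p = 0.986). Without control replicate 3 the r with Ppara was 0.480 and that with Creb3l3 0.0102. For Pdk4, Plin2, Acot1 and Creb3l3 over all 7 mice rho was -0.464, 0, -0.25 and 0.50 (exact permutation p = 0.302, 1, 0.595 and 0.267, adjusted 0.530, 1, 0.714 and 0.530). Without penicillin replicate 3 and control replicate 3, the 2 mice farthest from the Angptl4 median, r was 0.459 with Ppara and 0.211 with Cpt1a. The sign for Cpt1a therefore rested on those mice. Without the same mice r with Pdk4 was 0.263, with Plin2 0.452, with Acot1 0.752 and with Creb3l3 -0.362. Taken as deviations from the group means, r was 0.0745 with Ppara and -0.584 with Cpt1a. Single mice decided both, since the value with Ppara was 0.654 without penicillin replicate 4 and that with Cpt1a 0.162 without penicillin replicate 3.

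**Figure D3:**
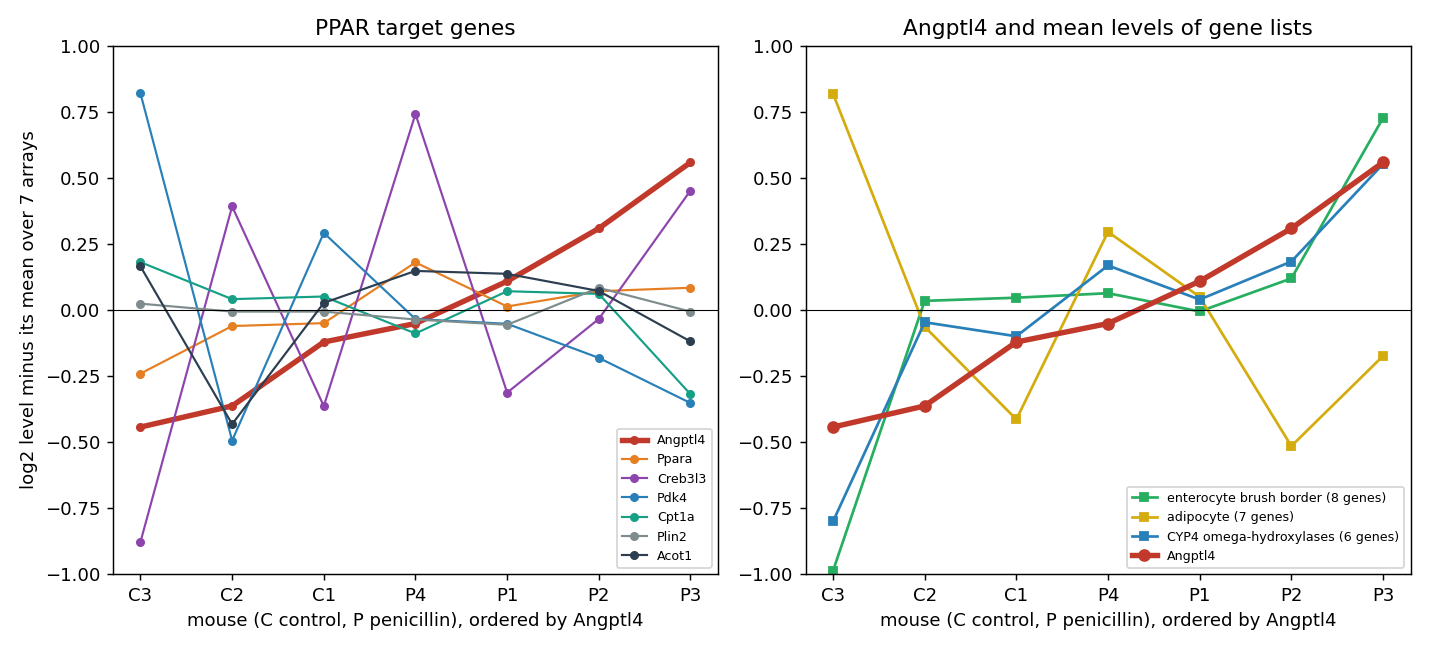
Log2 level of each gene (left) or mean level of each gene list (right) minus its mean over the 7 arrays, for mice ordered by Angptl4 from the lowest (control replicate 3) to the highest (penicillin replicate 3). Ppara is lowest and Pdk4 highest in control replicate 3, where the brush border list is lowest and the adipocyte list highest.

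By Pearson r over the 7 arrays, the 5 genes most like Angptl4 among 13641 ranked were Nr2c2, an orphan nuclear receptor (0.996), Lclat1, a cardiolipin and lysophospholipid acyltransferase (0.979), Peak1, a pseudokinase (0.976), Tmem86a (0.970) and Maoa, monoamine oxidase A (0.969). They were picked as the highest of many and carry no test. Their differences between the groups were small, from 0.16 for Lclat1 and Nr2c2 to 0.41 for Tmem86a, and none passed in limma (adjusted p from 0.308 to 0.433). Ppara ranked 1172 and Cpt1a 12285 in the same order.

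The mice at both ends of the Angptl4 order were also extremes of the brush border list. The mean of 8 enterocyte brush border genes, of 10 listed, ran from 9.49 to 10.5 in control mice and from 10.5 to 11.2 in penicillin mice, with control replicate 3 lowest and penicillin replicate 3 highest. All 8 were higher in penicillin mice, with a median difference of 0.49, and without control replicate 3 this was 4 of 8 and 0.12. All 8 smooth muscle genes were lower, with a median of -0.16, and so were 6 of 7 endothelial genes, with a median of -0.24 (-0.080 without control replicate 3). The mean of 7 adipocyte genes, of 10 listed, ran from 8.61 to 9.85 in control mice and from 8.51 to 9.32 in penicillin mice. Adipoq, the adipocyte hormone adiponectin, was at 11.1 to 12.8, well above the bottom of the scale in every sample, and highest in control replicate 3, where Angptl4 was lowest and Pdk4 highest. In whole tissue, fewer cells of a type and less RNA per cell cannot be told apart, and the part of these tissue differences in the members' values was not tested. The colon genes Car1 and Aqp8 were also highest in control replicate 3, at 14.1 and 8.27. The mean of the 4 colon genes tested, of 8 listed, was 11.8 in that mouse against 8.52 to 9.86 in the others. Of the 4, 3 were lower in penicillin mice, with a median of -0.78, and without control replicate 3 this was 2 of 4 and 0.035.

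Relatives and partners of the members were read from lists, and in the limma fit over all genes no gene on them passed, against 0.0953% of genes overall. With arrays weighted by their quality, 774 of 13644 genes passed, 286 higher and 488 lower, and list genes passed too. Angptl8, Cyp4f16, Dusp1 and Cyp2b10 were higher, and Ppard, Ppargc1b, Slc25a20, Pex11a, Pfkfb3 and Hk2 were lower. They were 2 of 13 receptors and partners, 1 of 12 in the angiopoietin-like list, 2 of 28 oxidation genes and 1 of 6 CYP4 genes. The rest were 1 of 26 lipid uptake genes, 1 of 13 on the glucocorticoid list and 2 of 19 on the hypoxia list. The other lists of related genes had none. Whether this exceeds the share over all genes was not tested. Each list's median difference can be read against that over all genes tested, -0.014. Among receptors and partners, 13 tested, 4 were higher and 9 lower, with a median of -0.036. With probe sets averaged 7 were higher and 6 lower, with a median of 0.0091. Ppard, the PPAR delta gene and the other main PPAR of the gut epithelium, differed by -0.27 ± 0.093 (SE, limma adjusted p = 0.410), the opposite sign to Ppara. Its groups did not overlap, with penicillin lower, as in 825 of all 13644 genes tested. Ppargc1b, a coactivator, differed by -0.20, and Pparg, Rxra and Ppargc1a by -0.12, 0.0016 and -0.036. Without control replicate 3 these were -0.16 for Ppargc1b, 0.26 for Pparg, -0.049 for Rxra and -0.11 for Ppargc1a, so the signs for Pparg and Rxra turned.

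In the list of angiopoietin-like proteins and lipoprotein lipase control, 6 of 12 were higher and 6 lower, with a median of -0.0065. Lpl, the enzyme that Angptl4 inhibits, differed by -0.36 ± 0.38 (SE) and was at 13.1 in control replicate 3 against 11.4 to 12.4 in the other mice; without that mouse the difference was 0.11. Angptl6 and Angptl8 differed by -0.020 and 0.19 (limma adjusted p = 0.956 and 0.529).

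The pyruvate dehydrogenase list, around Pdk4, had 2 of 10 higher and a median of -0.064. Pdk1, Pdk2 and Pdk3 differed by -0.14, 0.0016 and -0.069. Around Cpt1a, 12 of 28 carnitine shuttle and fatty acid oxidation genes were higher and 16 lower, with a median of -0.022. Slc25a20, the carnitine carrier that works downstream of Cpt1a, differed by -0.26 ± 0.078, and Ehhadh, a peroxisomal enzyme and PPAR alpha target, by 0.33 ± 0.10 (SE, limma adjusted p = 0.338 and 0.358). Cpt2, the inner-membrane partner of Cpt1a, differed by -0.096.

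Around Plin2, 5 of 12 lipid droplet genes were higher, with a median of -0.061. Plin3 differed by 0.078 and Pnpla2, the droplet triglyceride lipase, by -0.20. Without control replicate 3 these were -0.13 and -0.12, so the sign for Plin3 turned. The thioesterases had 6 of 9 higher and a median of 0.042, with Acot7 at -0.19 and Acot4 at 0.46. In the CREB3 list 5 of 10 were higher, with a median of -0.0036; Apoa4, an apolipoprotein of chylomicrons, differed by 0.90 ± 0.42 (SE, limma adjusted p = 0.493). Among lipid uptake and other targets 17 of 26 were higher, with a median of 0.091. The direction rested on single mice, since without penicillin replicate 4 it was 11 of 26 with a median of -0.024, and without control replicate 2 it was 13 of 26 with a median of 0.0091. Fabp2 differed by 0.27 and Aqp7 by 0.92, while Fabp1 and Cd36 differed by 0.33 and -0.30 (limma adjusted p = 0.413, 0.425, 0.844 and 0.727). Without control replicate 3 these were 0.17, 0.63, 0.090 and 0.10.

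The CYP4 hydroxylases, relatives of Cyp4a14, had a median of 0.56, the highest of the lists of related genes under the filter on low genes, with all 6 tested genes higher. With no filter 8 of 11 were higher and the median was 0.20, and with arrays weighted it was 0.25. Cyp4f16 was at 10.4, 10.3 and 9.53 in control mice and at 10.9, 11.3, 11.1 and 10.9 in penicillin mice. Cyp4b1 was at 9.28, 9.40 and 8.47 in control mice and at 9.63, 9.66, 10.8 and 9.89 in penicillin mice. In both genes every penicillin mouse lay above every control mouse, with differences of 0.96 ± 0.21 and 0.94 ± 0.33 (SE, limma adjusted p = 0.202 and 0.410). Control replicate 3 was the lowest mouse in both, and without it their differences were 0.69 and 0.65 and the median of the list was 0.16. The mean of the list was lowest in control replicate 3, at 8.69, and highest in penicillin replicate 3, at 10.04, the same mice as for the brush border genes, and the part of those genes in it was not tested. Without control replicate 1, 5 of the 6 were higher. The other 5 of the 11 listed CYP4 genes on the array, Cyp4a31 among them, lay under the filter.

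Angptl4 is also known to respond to glucocorticoids and to hypoxia. Of 13 genes on a glucocorticoid list 7 were higher, with a median of 0.019. Besides induced genes that list holds others, such as the receptor gene Nr3c1 and the steroid enzyme genes Hsd11b1 and Hsd11b2. Dusp1 and Sgk1, named for their large moderated t, differed by 0.35 and 0.45 (limma adjusted p = 0.308 and 0.450). Without control replicate 3 they differed by 0.27 and 0.20, and 9 of the 13 were higher. The 4 lower there were Fkbp5, Per1, Klf9 and Zbtb16, at -0.086, -0.23, -0.15 and -0.40. Of 19 genes on a hypoxia list, which also holds the regulator genes Hif1a and Epas1, 9 were higher, with a median of -0.0031. The glycolytic genes Pfkfb3 and Hk2 of that list, named for their large moderated t, differed by -1.22 ± 0.24 and -0.92 ± 0.19 (SE, limma adjusted p = 0.152 and 0.168). In both, the penicillin mice all lay below the control mice, as in 825 of all 13644 genes tested. Without control replicate 3 they differed by -1.38 and -1.07. A part of glucocorticoids or hypoxia in the Angptl4 values was not tested.

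**Figure D4:**
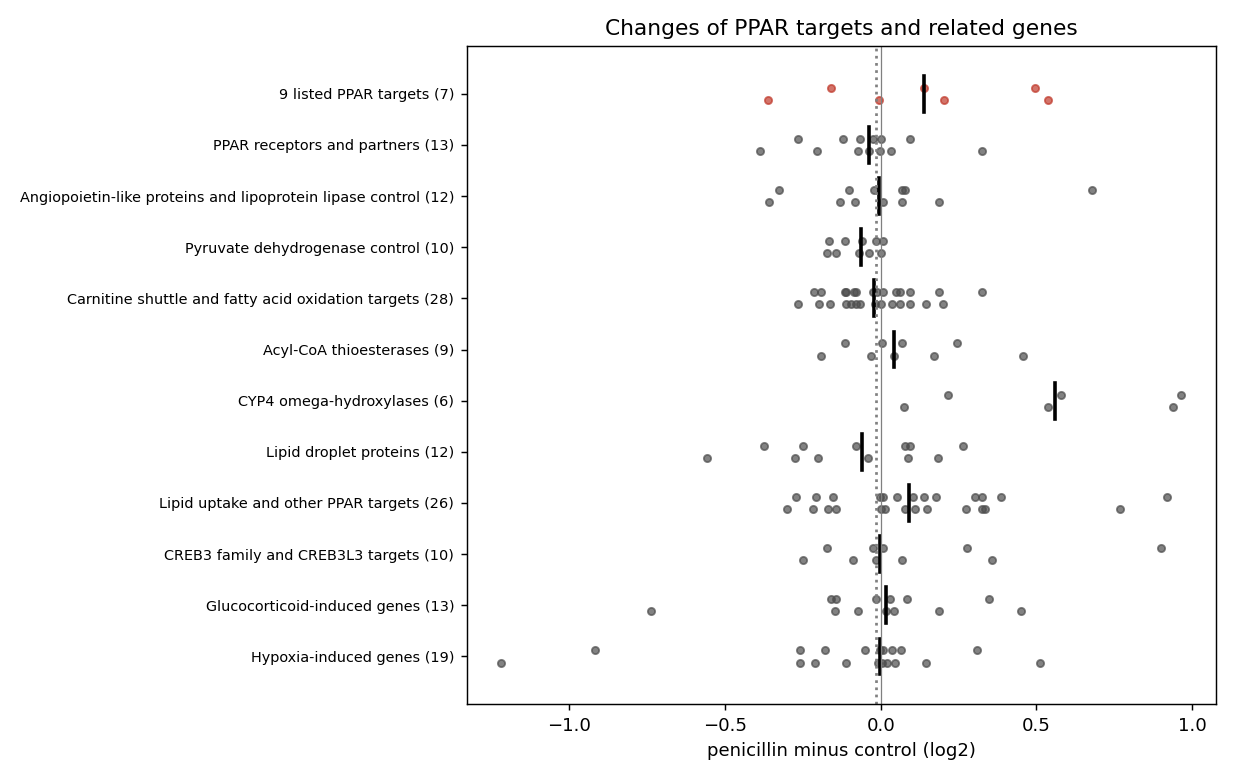
Penicillin minus control on the log2 scale for the tested genes (points, numbers in brackets) of the 9 listed PPAR targets (red) and of the lists of related genes (grey), with the median of each list as a black bar and the median over all genes tested as a dotted line. Most lists straddle 0, and the CYP4 hydroxylases lie furthest to the right.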

How the data were processed

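Total RNA of 7 terminal ileum samples was hybridised to Affymetrix mouse arrays with a biotin label, per the labels. The deposited values are log2 expression per probe set, made by the authors with the tools RMA and affy, which the submitters' processing notes name. The genome build is not given in the sources used here, nor are versions. Depth does not apply to arrays. The table held 45101 probe sets, of which 34958 name 1 gene, 932 several and 9211 none in the platform annotation; 34945 were used after control probe sets were left out, and 34741 matched RefSeq by gene ID. A gene was represented by its probe set with the highest mean, and genes at or under the 25th percentile of these means (log2 4.588) were left out. The comparison used limma 3.58.1 under R 4.3.3 (lmFit, eBayes, two-sided, Benjamini-Hochberg over all genes), tested on simulated data with known changes. Named are the members, fixed close relatives, up to 3 genes per list with the largest moderated t, the 5 genes most like Angptl4 and tissue markers. The members and lists were chosen with earlier results of these data known. Replicate numbers were not taken as pairs in the main fit. Alternatives were 2 other normalisations, 2 other filters, averaged or single probe sets, other variance priors, array weights, the replicate number as a block, another threshold and each array left out. Plots used matplotlib 3.10.9 under Python 3.11.15.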

Additional observations from a re-analysis of the deposited data

How the results depend on the processing

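No member passed in any of 15 refits or with every probe set tested by itself or at an adjusted p under 0.1, and over the refits the adjusted p of Angptl4 in limma lay between 0.0879 (array weights) and 0.790 (replicate block). Angptl4 was higher in all of them, by 0.43 to 0.63 with an array left out. The count of genes passing over the whole table was 13, and it was 7 with probe sets averaged, 774 with array weights, 0 with the replicate block, 40 at an adjusted p under 0.1, and 0 to 15 with an array left out. Plin2 turned to 0.016 with array weights, 0.0045 with the replicate block, and lay between -0.035 and 0.012 with an array left out, above 0 where control replicate 3 (0.0023) or penicillin replicate 1 (0.012) or 4 (0.0045) was dropped. Acot1 lay between -0.036 (without control replicate 2) and 0.26. The excess of Angptl4 over Creb3l3 turned to -0.18 with probe sets averaged and lay between -0.32 and 0.31 with an array left out, negative without control replicate 2 (-0.32) and also without penicillin replicate 1 (-0.092) or 2 (-0.067). The r with Plin2 turned to -0.0622 after renewed quantile normalisation and lay between -0.313 (without penicillin replicate 2) and 0.320 with an array left out. The r with Acot1 lay between -0.749 (without control replicate 2) and 0.376, and that with Pdk4 passed at -0.934 without control replicate 2 (exact permutation, adjusted p = 0.0333) and was -0.113 without control replicate 3. The turn against Creb3l3 with probe sets averaged follows from the averaging. It takes in the Angptl4 probe set without a usable level and brings Angptl4 to 0.31, while Creb3l3 has 1 probe set and stays at 0.50. The cause of the other turns was not tested. The main fit did not take mice of the same replicate number as pairs. Their deviations from the group means correlated at -0.164, 0.00297 and -0.416, too few values to show whether the numbers pair the mice. With the number as a block, penicillin replicate 4 has no partner and does not count, and Angptl4 was at 0.63 ± 0.16 (SE).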
